A study of Mus musculus with 14 samples.

Results

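RNA was compared between cultured mouse BFU-E treated with compound PD at 3 nM and BFU-E given DMSO, the solvent. BFU-E (burst-forming unit-erythroid cells) are early progenitors of red blood cells. The groups are taken from the labels of 6 of the 14 samples of the series. Of these, 3 libraries are solvent controls (PD DMSO 1 to 3) and 3 are treated (compound PD 1 to 3), and every gene of the table was examined. All cells came from fetal liver of C57BL/6 mice and grew in StemSpan SFEM II medium, so strain, tissue and medium are shared by the groups. The labels do not spell out what compound PD is, and give neither the time of exposure, the cytokines added nor the number of embryos pooled. Nothing states that the 3 libraries of a group are separate cultures or mice, and p-values therefore reflect the library-to-library spread alone, which may be technical. The other RNA libraries of the series test a different compound with its own controls and are not used here.

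BFU-E divide and mature through later progenitors into erythroblasts, which fill with globin and heme enzymes and lose most other transcripts. Granulocyte, megakaryocyte and mast cell progenitors share early ancestors and surface markers with them and live in the same fetal liver. Granulocyte precursors make large amounts of S100 proteins and of antimicrobial granule proteins, and platelet-forming megakaryocytes make adhesion receptors and contractile proteins. In RNA of a whole culture, more cells of a type and more RNA per cell cannot be told apart.

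The start regions of 4 genes that the results turn on are shown first. Each is the stretch of 250 bases before a transcript start that RefSeq lists for the gene (GRCm38.p6, the assembly that mm10 names), written 5′ to 3′ on the strand of the gene. Where the table lists several starts, as for Ndrg2, the most upstream was taken. For Gp9 and Fcnb the listed start lies inside the RefSeq span of the gene, which reaches further upstream than the stretch's own start, so these are not the outermost starts of the genes. Capitals mark 6 short motifs searched on both strands. GATA factor motifs were read as AGATAA, and those of C/EBP factors as TTNNGCAA. The letters for ETS factors were GAGGAAG, and for RUNX factors TGTGGT. The cAMP response element, CRE, was searched as TGACGTCA and the TATA box as TATAAA. None of these motifs overlaps another in the stretches shown. Fcnb and S100a8 stand for the myeloid genes, Gp9 for the platelet genes, and Ndrg2 is the protein-coding gene that was lower. They lie at chr2:28084879-28085128 on the minus strand (Fcnb), chr3:90668821-90669070 on the plus strand (S100a8), chr6:87777820-87778069 on the plus strand (Gp9) and chr14:51914005-51914254 on the minus strand (Ndrg2).
Fcnb: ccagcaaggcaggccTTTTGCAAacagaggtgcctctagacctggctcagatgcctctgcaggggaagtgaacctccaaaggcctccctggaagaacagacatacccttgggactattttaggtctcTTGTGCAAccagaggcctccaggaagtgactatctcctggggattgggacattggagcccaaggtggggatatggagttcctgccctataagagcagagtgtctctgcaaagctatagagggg
S100a8: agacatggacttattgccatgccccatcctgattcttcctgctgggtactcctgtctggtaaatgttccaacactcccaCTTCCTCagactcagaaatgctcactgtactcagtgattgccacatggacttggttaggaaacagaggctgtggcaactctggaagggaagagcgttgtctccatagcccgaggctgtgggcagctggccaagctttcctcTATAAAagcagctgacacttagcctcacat
Gp9: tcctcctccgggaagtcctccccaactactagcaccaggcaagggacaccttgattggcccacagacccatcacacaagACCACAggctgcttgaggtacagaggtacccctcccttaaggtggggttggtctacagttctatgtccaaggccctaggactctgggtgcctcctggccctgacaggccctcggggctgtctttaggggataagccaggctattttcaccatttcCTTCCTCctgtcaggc
Ndrg2: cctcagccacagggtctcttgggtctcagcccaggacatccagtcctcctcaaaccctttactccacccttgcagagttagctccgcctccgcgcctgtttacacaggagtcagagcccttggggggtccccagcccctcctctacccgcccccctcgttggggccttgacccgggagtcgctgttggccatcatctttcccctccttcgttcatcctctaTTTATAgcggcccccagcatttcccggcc

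The Fcnb stretch holds 2 C/EBP motifs, S100a8 an ETS and a TATA motif, Gp9 an ETS and a RUNX motif, and Ndrg2 a TATA motif. Of 8900 tested genes with a RefSeq stretch, 7.27% hold the C/EBP letters, 10.7% the ETS, 10.9% the RUNX, 6.01% the GATA, 5.9% the TATA and 2.76% the CRE letters. Of the neutrophil list described below, 19 of 21 members had a stretch, and 42.1% of these hold C/EBP and 52.6% ETS letters. Of the megakaryocyte list 15 of 19 members had one, of which 33.3% hold ETS and 13.3% GATA letters. No member with a stretch on either list holds the CRE letters. These matches describe the sequence only.

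The libraries were checked against the labels before the comparison. The unit is FPKM, in which fragments are divided by the length of the gene and the size of the library, so depth is unknown and no counting interval can be given. Erythroid genes were high in all 6 libraries. Gata1, the master regulator of red cell genes, was at 142.31, 133.65 and 134.3 FPKM in DMSO and at 134.05, 135.18 and 132.26 FPKM in compound PD. Cd5l, Alb and Cdh5, markers of liver macrophages, hepatocytes and vessel cells, were each at 0.13 FPKM or less in every library. Other markers were not all absent. The 19 macrophage and monocyte markers summed to between 609 and 1088 FPKM in DMSO and between 1695 and 2271 FPKM in compound PD. Nearly all of each sum was 1 gene, Lyz2, at 593.85, 1053.39 and 1047.94 against 1655.79, 2021.61 and 2234.18 FPKM. Only 7 of the 19 were high enough to test, and C1qa and C1qb were at 0.98 FPKM or less in every library. The sums therefore describe Lyz2 rather than the list. The endothelial and stromal markers summed to 13.94 to 33.4 FPKM and those of hepatocytes to 1.92 to 6.57 FPKM. The 21 markers of granulocyte precursors summed to between 12263 and 18632 FPKM in DMSO and between 31496 and 39678 FPKM in compound PD. The 19 platelet markers summed to between 3024 and 5867 and between 5549 and 9358 FPKM. The cultures thus hold strong granulocyte and megakaryocyte transcripts beside the labelled cell type.

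PD DMSO 1 stood apart from the other 5 libraries. The adult globin genes took 32.3% of its FPKM, against 12.8 to 19.8% in the others, and it was the lowest of the 6 libraries in 49.5% of tested genes. Its median-ratio scaling factor was 0.8345, against 1.006 to 1.069. Compound PD 1 was the highest of the 6 in 28.9% of genes.

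The sex-linked genes separated the libraries into 3 sets of levels. Eif2s3y, a translation initiation factor on the Y chromosome, was at 52.11, 4.82 and 6.06 FPKM in PD DMSO 1, 2 and 3 and at 17.8, 17.56 and 21.68 FPKM in compound PD 1, 2 and 3. Xist, the RNA that silences one X chromosome in female cells, was at 6.4, 103.57 and 109.18 FPKM in DMSO and at 26.43, 58.86 and 52.07 FPKM in compound PD. PD DMSO 1 was thus highest in the Y-linked and lowest in the X-silencing transcript, PD DMSO 2 and 3 were the reverse, and compound PD lay between. The sum of the Y-linked Eif2s3y, Ddx3y, Uty and Kdm5d was 92.13 in PD DMSO 1, 9.03 and 9.9 in PD DMSO 2 and 3, and 35.82 to 47.61 FPKM in compound PD. The embryos that gave the cells and the treatment therefore cannot be told apart when PD DMSO 2 and 3 alone are set against compound PD. Results are therefore given with all 6 libraries and without PD DMSO 1, and each call below names the comparison it comes from.

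**Figure D1:**
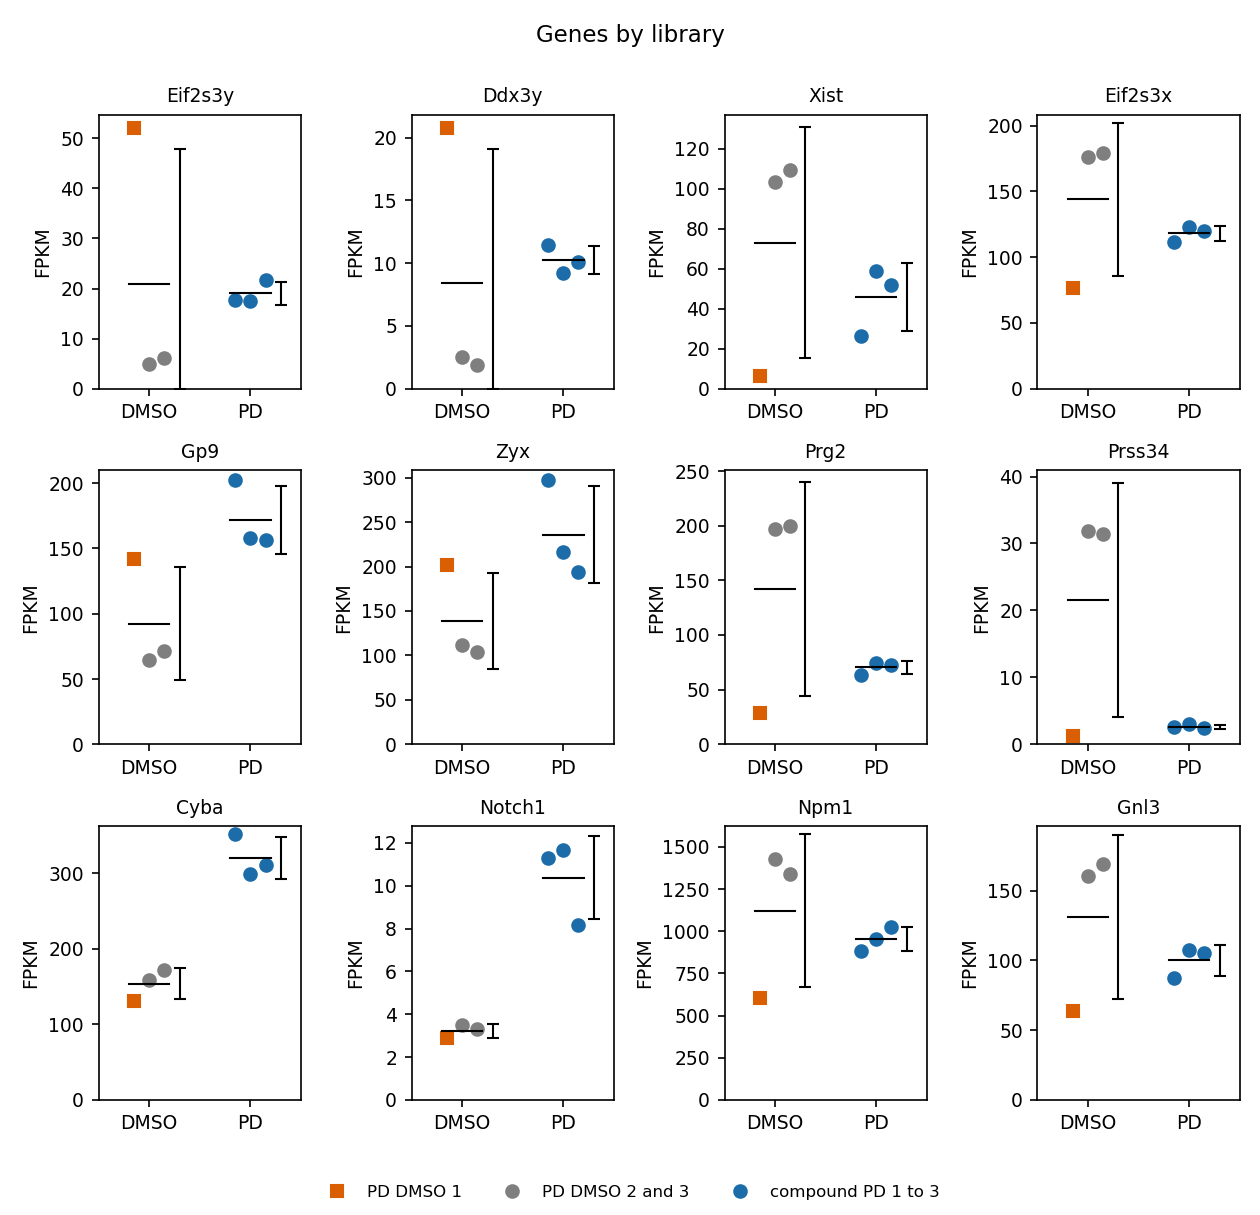
FPKM of 12 genes in each library (points), with the mean of each group of 3 (line) and its SD (bar, stopped at 0). PD DMSO 1 (square) sits far from PD DMSO 2 and 3 for the sex-linked genes in the top row, near the compound PD libraries for Gp9, Zyx, Prg2 and Prss34, and with the other DMSO libraries for Cyba and Notch1.

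With all 6 libraries, 4 of 11905 genes passed the test. The test was a moderated comparison (limma) of log2(FPKM + 1) over the genes that averaged 1 FPKM or more, and a gene passed at an adjusted p under 0.05. Fcnb and Rnu3a were higher after compound PD (2 genes, 0.0168% of those tested), and Ndrg2 and Gm26712 were lower (2 genes, 0.0168%). Differences below are on this log2(FPKM + 1) scale, where changes of weakly expressed genes appear smaller than they are. All 4 of these genes passed without PD DMSO 1 too.

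Fcnb encodes ficolin-B, a secreted lectin of myeloid cells that binds microbial sugars and can start the lectin pathway of complement. It lies at chr2:28076479-28084910. It was at 75.81, 82.43 and 91.23 FPKM in DMSO and at 268.96, 218.93 and 234.3 FPKM in compound PD. The lowest treated library was above every control by more than the whole range of the controls. The means were 83.2 ± 7.74 and 240.7 ± 25.6 FPKM (SD, n = 3 each), a log2 difference of 1.52 with a standard error of 0.15 and an adjusted p of 0.0137 by limma. Of 16 alternative settings 10 kept the call, with adjusted p from 0.0068 to 0.1567 and log2 differences from 1.43 to 1.59. The related ficolin gene Fcna was listed at 0 in all 6 libraries.

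Ndrg2 encodes a member of the NDRG family, cytoplasmic proteins with an alpha/beta hydrolase fold that respond to stress and differentiation signals. It lies at chr14:51905271-51914004. It was at 43.14, 35.24 and 38.84 FPKM in DMSO and at 14.49, 14.21 and 14.3 FPKM in compound PD. The treated libraries were nearly equal to each other and far below the lowest control. The means were 39.1 ± 3.96 and 14.3 ± 0.143 FPKM (SD, n = 3 each), and the log2 difference was -1.38 with a standard error of 0.16 and an adjusted p of 0.0336 by limma. Of the 16 alternatives 7 kept the call, and the others gave adjusted p up to 0.2915 with log2 differences from -1.47 to -1.29 over all of them. With all 6 libraries the call was lost under median-ratio and quantile scaling, with no filter, and in limma without trend and robust moderation. It was also lost on leaving out any single library other than PD DMSO 1.

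The other family members were measured as well. Ndrg1, which responds to hypoxia and differentiation, was at 24.78, 14.55 and 28.06 FPKM in DMSO and at 48.26, 32.54 and 31.75 FPKM in compound PD (log2 difference 0.74, adjusted p = 0.354, and 0.183 without PD DMSO 1). Ndrg3 was at 41, 41.91 and 45.8 against 40.63, 34.51 and 33.56 FPKM (-0.24, adjusted p = 0.690, and 0.290 without PD DMSO 1). Neither passed, nor did Ndrg4 (-0.96, adjusted p = 0.442, and 0.288 without PD DMSO 1), whose control values were 17.85, 5.48 and 5.17 FPKM with PD DMSO 1 the highest.

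Rnu3a encodes a copy of U3, a small nucleolar RNA that guides the cutting of precursor ribosomal RNA, and lies at chr10:40258468-40258679. It was listed at 0 FPKM in all 3 controls and at 16.26, 20.5 and 12.42 FPKM in compound PD, with an adjusted p of 0.0007 by limma. All 16 alternatives kept the call, with adjusted p from 0.0004 to 0.0254. U3 is transcribed from near-identical copies, and how the authors' counting split reads between them is not given in the sources used here. The copies Rnu3b1 and Rnu3b2, listed with identical values, were at 35.94, 32.96 and 21.35 FPKM in DMSO and at 12.54, 19.65 and 40.08 FPKM in compound PD. Summed over the 3 copies, U3 was at 71.88, 65.92 and 42.7 FPKM in DMSO and 41.34, 59.8 and 92.58 FPKM in compound PD. These sums overlap. Rnu3b1 and Rnu3b2 may be counts of the same reads, so the sums do not settle whether U3 as a whole changed.

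Gm26712, a predicted gene that did not match RefSeq, was at 9.79, 23.68 and 9.19 FPKM in DMSO and listed at 0 in all 3 compound PD libraries (adjusted p = 0.0120). Of the 16 alternatives 12 kept its call, with adjusted p from 0.0019 to 0.1445. The 4 without it were the fit with no filter on low values and the 3 that left out a compound PD library.

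**Figure D2:**
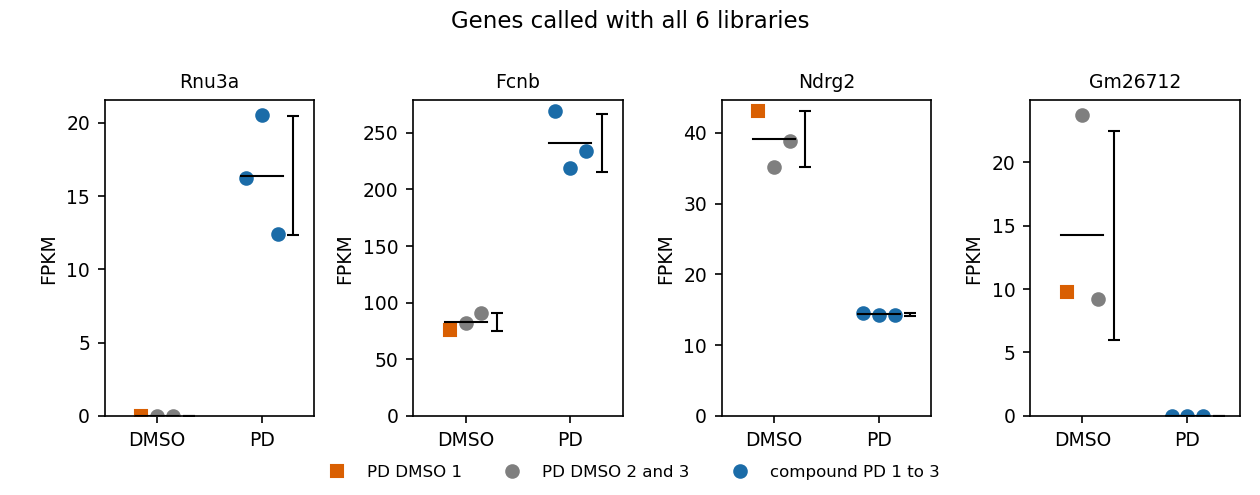
FPKM per library of the 4 genes that passed with all 6 libraries (points), with group means (line) and SD (bar, n = 3 each). The groups do not overlap for any of them, and Rnu3a in DMSO and Gm26712 in compound PD are listed at 0 throughout.

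Below these 4 genes, many more lay on the higher side without passing. At an unadjusted p under 0.05 there were 1077 genes higher (9.05%) and 192 lower (1.61%). The groups did not overlap for 1560 genes with compound PD higher (13.1%) and 442 with it lower (3.71%). With median-ratio scaling, which removes the low overall level of PD DMSO 1, the corresponding numbers were 1206 (10.1%) and 945 (7.95%), so the tilt to the higher side depends on the scaling. The share of genes with a positive log2 difference was 59.1% as deposited and 46.0% after that scaling, and the median over all genes moved from 0.06 to -0.03.

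At an adjusted p under 0.1 there were 34 genes higher (0.286%) and 5 lower (0.0420%), and 37 of these 39 passed at 0.05 without PD DMSO 1. They were chosen for description after their values were seen. S100a8 and S100a9 encode the subunits of calprotectin, a calcium- and metal-binding protein of neutrophils. S100a8 was at 3788.49, 5221.79 and 4938.7 FPKM in DMSO and at 9371.39, 9692.44 and 12177.26 FPKM in compound PD (log2 difference 1.17, SE 0.15, adjusted p = 0.0662, and 1.03 with 0.0217 without PD DMSO 1). S100a9 was at 5145.88, 7880.69 and 7528.29 against 14066.12, 14087.59 and 17903.72 FPKM (1.18, SE 0.17, adjusted p = 0.0851, and 0.99 with 0.0219 without PD DMSO 1). In both genes every treated library was above every control, and PD DMSO 1 was the lowest.

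Notch1 lay on the higher and Aqp9 on the lower side, each with all 3 controls apart from all treated libraries. Notch1, a receptor that is cut on binding its ligand and then acts in the nucleus, was at 2.87, 3.51 and 3.33 FPKM in DMSO and at 11.29, 11.69 and 8.16 FPKM in compound PD (log2 difference 1.41, SE 0.22, adjusted p = 0.0860, and 1.35 with 0.0356 without PD DMSO 1). Aqp9, a channel for water and glycerol, was at 15.15, 13.74 and 9.51 FPKM in DMSO and at 3.81, 3.43 and 4.2 FPKM in compound PD (-1.50, SE 0.23, adjusted p = 0.0851, and -1.37 with 0.0376 without PD DMSO 1). Neither pair of groups overlapped. Of the 19 tested genes of the Notch list, 1 passed without PD DMSO 1, namely Notch1. Over all genes 1.10% passed on the higher side in that fit. The Notch target Hes1 was at 1.7, 3.5 and 2.68 against 2.6, 4.62 and 2.83 FPKM (adjusted p = 0.879, and 0.918 without PD DMSO 1), and the receptor Notch2 gave 0.809 and 0.943.

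Gsn, Coro1a and Ifitm3 also had controls close together. Gsn encodes gelsolin, which severs actin filaments, and was at 49.04, 46.66 and 46.7 FPKM in DMSO and at 88.76, 83.57 and 81.08 FPKM in compound PD (log2 difference 0.82, SE 0.14, adjusted p = 0.0973, and 0.84 with 0.0217 without PD DMSO 1). Coro1a, an actin-binding protein of leukocytes, was at 174.49, 206.39 and 190.62 against 421.91, 354.85 and 340.95 FPKM (0.96, SE 0.14, adjusted p = 0.0851, and 0.90 with 0.0240 without PD DMSO 1). Ifitm3, an antiviral membrane protein, was at 100.32, 90.44 and 103.57 against 206.55, 176.12 and 183.7 FPKM (0.94, SE 0.14, adjusted p = 0.0851, and 0.95 with 0.0217 without PD DMSO 1). In these 3 genes PD DMSO 1 lay with the other controls and no control reached a treated library.

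Without PD DMSO 1, 168 of 11959 genes passed (1.40%), of which 132 were higher (1.10%) and 36 lower (0.301%). At an unadjusted p under 0.05 there were 2388 in both directions together (20.0%). Groups of 2 and 3 libraries did not overlap for 2181 genes with compound PD higher (18.2%) and 2490 with it lower (20.8%), and 47.0% of genes had a positive log2 difference. Of the 132 higher genes 17 were on a list of lineage markers, 28 on a list of function only and 87 on no list. Of the 36 lower genes the numbers were 5, 6 and 25. Over the 69 lists, 26 had a member that passed without PD DMSO 1, against 1 with all 6 libraries. With 2 controls left, this contrast carries the difference in sex-linked genes given above, and its part in the other calls was not tested.

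**Figure D3:**
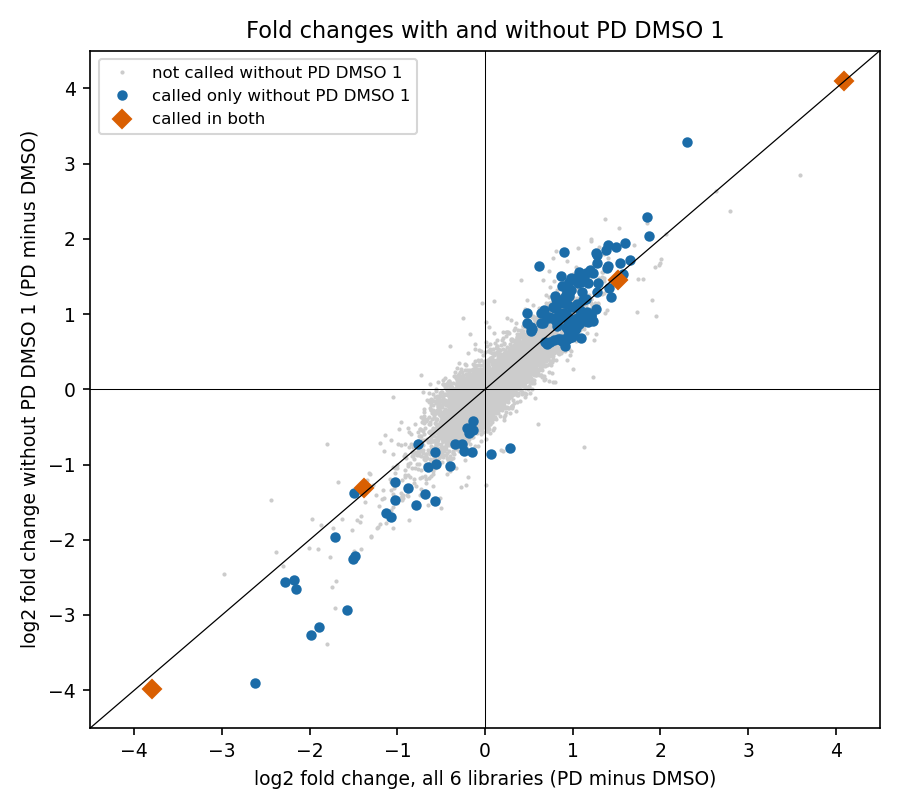
Log2 difference of each tested gene with all 6 libraries (x axis) and without PD DMSO 1 (y axis), with the line of equality. The 4 genes called in both (diamonds) lie near the line, and several genes called lower only without PD DMSO 1 (circles) lie well below it.

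Where the left-out library lay is given as a description. Of the 132 genes called higher without it, PD DMSO 1 was below all 3 compound PD libraries in 106, within their range in 21 and above it in 5. After median-ratio scaling these numbers were 81, 32 and 19. Of the 36 genes called lower, PD DMSO 1 was above all compound PD libraries in 9, within their range in 8 and below it in 19. After scaling the numbers were 13, 7 and 16. Over all 11959 genes tested, PD DMSO 1 was below all compound PD libraries in 59.5%, within their range in 25.2% and above in 15.3%. After scaling these shares were 34.1%, 33.2% and 32.7%. Of the genes called higher it was below in 80.3%, and in 61.4% after scaling. Of those called lower it was above in 25%, and in 36.1% after scaling. The same compound PD libraries chose the called genes, so the positions are no independent check of the calls.

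On the neutrophil list every tested member lay on the higher side, and Fcnb alone passed with all 6 libraries. All 21 tested members had a positive log2 difference, with a median of 0.92 against 0.06 over all genes tested, of which 59.1% were positive. An unadjusted p under 0.05 on the higher side was reached by 15, against 9.05% of all genes. With median-ratio scaling the median was 0.83. The median without PD DMSO 1 was 0.70 and 5 members passed, against 1.10% of all genes on the higher side, namely Fcnb, S100a8, S100a9, Ly6c2 and Camp. Camp, the precursor of an antimicrobial peptide of secondary granules, was at 383.47, 611.44 and 569.07 FPKM in DMSO and at 953.42, 1335.01 and 1475.58 FPKM in compound PD (1.06, adjusted p = 0.0416 without PD DMSO 1, and 0.0973 with all 6). Mpo, the myeloperoxidase of primary granules, was at 428.14, 555.85 and 560.35 against 932.52, 462.97 and 421.61 FPKM, so its groups overlapped (log2 difference 0.15, adjusted p = 0.945, and 0.976 without PD DMSO 1). Ly6c2 encodes a surface protein of monocytes and neutrophils.

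Cyba, Ncf1 and Hvcn1, on no lineage list, passed without PD DMSO 1 as well. The phagocyte NADPH oxidase makes superoxide, and its subunit Cyba was at 131.18, 158.64 and 171.83 FPKM in DMSO and at 351.13, 298.93 and 310.16 FPKM in compound PD (log2 difference without PD DMSO 1 0.95, adjusted p = 0.0190; with all 6, 1.06 and 0.0851). Its cytosolic subunit Ncf1 was at 36.52, 55.92 and 61.51 against 109.21, 102.55 and 99.57 FPKM (0.81, adjusted p = 0.0232 without PD DMSO 1; 0.137 with all 6). Hvcn1, the proton channel that supports the oxidase, was at 14.49, 22.93 and 22.3 against 46.76, 39.21 and 40.7 FPKM (0.87, adjusted p = 0.0292; 0.137 with all 6). The groups did not overlap in any of the 3, and PD DMSO 1 was lowest each time. Cybb, Ncf4 and Rac2, which encode other subunits, did not pass in either fit, with adjusted p without PD DMSO 1 of 0.079, 0.146 and 0.061. These genes were chosen after their values were seen.

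Itgb2, Itgam, Ltb4r1 and Arrb2 passed without PD DMSO 1 too. Itgb2, the beta chain of leukocyte integrins, was at 48.54, 62.87 and 56.54 against 110.34, 106.89 and 103.35 FPKM (log2 difference 0.83, adjusted p = 0.0219 without PD DMSO 1, and 0.0973 with all 6). Its partner Itgam was at 29.43, 57.98 and 60.16 against 83.84, 93.65 and 88.89 FPKM (0.58, adjusted p = 0.0441 without PD DMSO 1, and 0.245 with all 6). Ltb4r1, the receptor of the chemoattractant leukotriene B4, gave 0.67 and an adjusted p of 0.0376 without PD DMSO 1, and 0.158 with all 6. Arrb2, an arrestin that ends signalling of G protein-coupled receptors, gave 0.63 and 0.0377, and 0.151 with all 6. No control reached a treated library in Itgb2 and Itgam. Of the 31 tested genes on the integrin and adhesion list 26 were on the higher side, with a median of 0.38, and the median without PD DMSO 1 was 0.24. Over all genes 59.1% were on the higher side.

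No megakaryocyte gene passed with all 6 libraries, and 11 of 19 passed without PD DMSO 1. All 19 members had a positive log2 difference with all 6 libraries, with a median of 0.86, and 17 had an unadjusted p under 0.05. Over all genes 59.1% were positive and 9.05% were higher at that p, and 1.10% passed on the higher side without PD DMSO 1. The median of the list without PD DMSO 1 was 1.20. Gp9, a subunit of the platelet receptor for von Willebrand factor, was at 141.97, 64.38 and 71.1 FPKM in DMSO and at 202.14, 157.67 and 156.14 FPKM in compound PD. PD DMSO 1 lay nearer to the treated libraries than to its own group. The log2 difference was 1.32 (SE 0.14, adjusted p = 0.0179) without PD DMSO 1 and 0.97 (SE 0.28, adjusted p = 0.250) with it.

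Further platelet genes are given with their calls. Vwf, which tethers platelets to the vessel wall, was at 68.98, 37.36 and 33.31 against 112.5, 73.94 and 69.92 FPKM (log2 difference 1.22, adjusted p = 0.0441 without PD DMSO 1, and 0.287 with all 6). Slc6a4, the serotonin transporter that loads platelets with serotonin, was at 129.38, 70.08 and 73.31 against 171.76, 144.83 and 141.32 FPKM (1.07, adjusted p = 0.0190, and 0.262). Alox12, the platelet-type lipoxygenase, was at 118.16, 44.08 and 49.17 against 147.74, 114.06 and 107.85 FPKM (1.37, adjusted p = 0.0213, and 0.358), and in it PD DMSO 1 lay inside the treated range. Tubb1, the beta tubulin of the platelet rim, was the exception, with PD DMSO 1 close to its group at 29.13, 18.79 and 17.32 against 46.54, 65.22 and 62.01 FPKM (1.61, adjusted p = 0.0176, and 0.0973). Pf4, a platelet chemokine, did not pass in either fit (adjusted p = 0.0662 without PD DMSO 1).

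Genes outside the lineage lists whose products signal in platelets, among other cells, were picked after their values were seen. Rasgrp2, which activates the small GTPase Rap1, was at 137.46, 77.93 and 66.65 FPKM in DMSO and at 245.34, 206.99 and 186.72 FPKM in compound PD (log2 difference 1.54, adjusted p = 0.0131 without PD DMSO 1, and 0.151 with all 6). Gnaz, an inhibitory G protein alpha subunit, was at 13.81, 5.87 and 5.24 against 23.63, 16.62 and 16.4 FPKM (1.58, adjusted p = 0.0240, and 0.236). In both genes PD DMSO 1 was the highest control but stayed under every treated library. Tbxa2r, the thromboxane receptor, was low throughout, at 2.32, 0.69 and 0 against 7.99, 5.06 and 3.78 FPKM (2.30, adjusted p = 0.0392, and 0.179).

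The actin and myosin list had 47 of 52 tested members on the higher side with all 6 libraries, a median of 0.48, 31 members at an unadjusted p under 0.05 and none that passed. Over all genes 59.1% were on the higher side and 9.05% were higher at that p. Leaving out PD DMSO 1 gave a median of 0.36 and 11 members that passed, against 1.10% of all genes on the higher side. They are Myl9, Gsn, S100a11, Coro1a, Flna, Anxa1, Actn1, Tmsb4x, Myh10, Tpm4 and Zyx. Flna, a filamin that crosslinks actin, was at 147.12, 128.79 and 116.99 FPKM in DMSO and at 288.82, 235.47 and 222.07 FPKM in compound PD (1.00, adjusted p = 0.0243 without PD DMSO 1, and 0.0973 with all 6). Zyx, a protein of focal adhesions, was at 201.21, 111.9 and 103.82 against 297.56, 216.59 and 193.67 FPKM (1.10, adjusted p = 0.0391, and 0.302). PD DMSO 1 lay with the controls in Flna and inside the treated range in Zyx. Myl9, the light chain of smooth muscle and platelet myosin, was at 23.49, 7.97 and 7.4 against 21.72, 24.54 and 23.26 FPKM, with PD DMSO 1 also inside the treated range (1.48, adjusted p = 0.0131 without PD DMSO 1, and 0.376 with all 6).

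**Figure D4:**
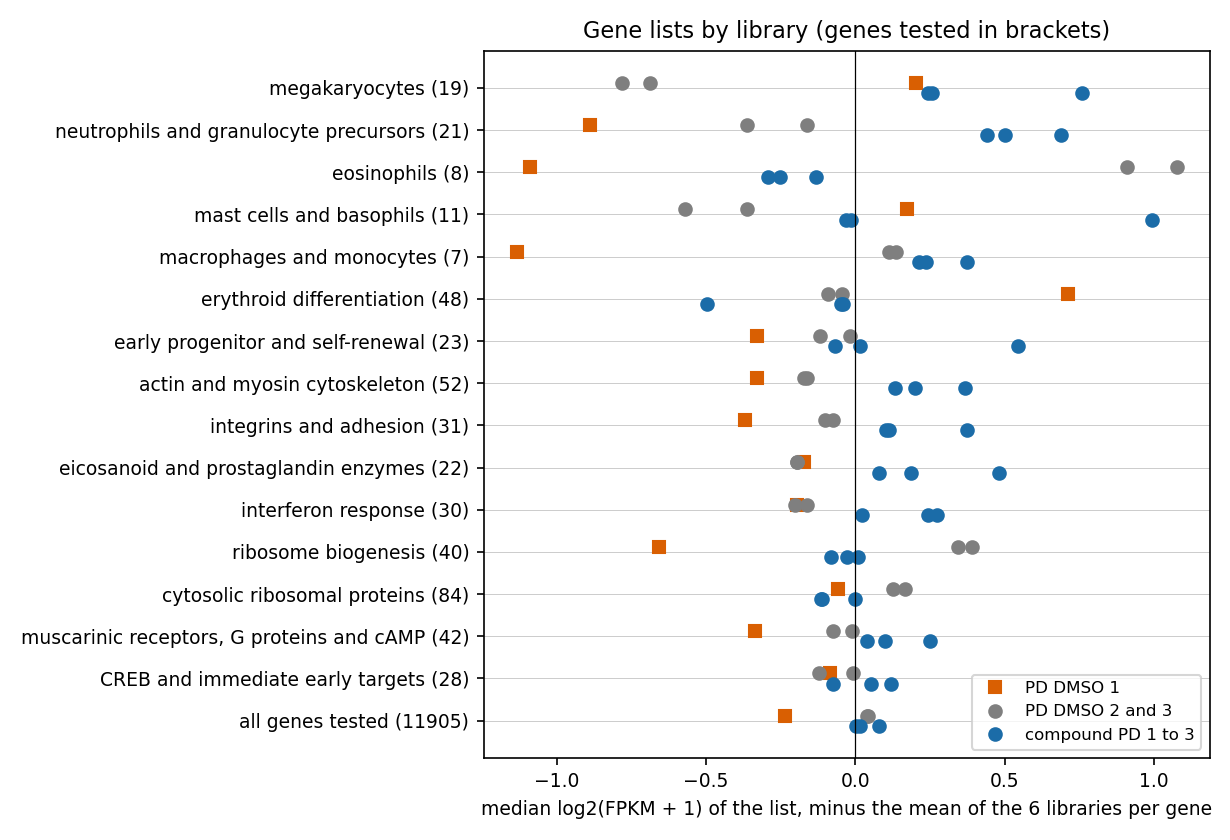
For 15 gene lists and all genes tested, the median log2(FPKM + 1) of the list in each library after subtracting each gene's mean over the 6 libraries. All 3 compound PD libraries lie above all 3 controls for the neutrophil, megakaryocyte, macrophage, cytoskeleton, integrin, eicosanoid and interferon lists. The same holds for the list of muscarinic receptors, G proteins and cAMP. PD DMSO 1 lies apart from PD DMSO 2 and 3 for the megakaryocyte, eosinophil, erythroid and ribosome biogenesis lists, among others.

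Ckb, Slc16a3 and Pygl, outside the lineage lists, rose in the fit without PD DMSO 1. Ckb, the brain-type creatine kinase that buffers ATP, was at 10.98, 6.35 and 6.25 FPKM in DMSO and at 24.01, 19.43 and 22.22 FPKM in compound PD (log2 difference 1.64, SE 0.15, adjusted p = 0.0131, and 0.0973 with all 6). Slc16a3, a lactate exporter, was at 11.1, 10.65 and 12 against 24.22, 24.01 and 20.15 FPKM (0.95, adjusted p = 0.0358, and 0.0973). Their controls were close together and no control reached a treated library. Pygl, the liver-type glycogen phosphorylase, was at 28.07, 45.06 and 47.33 against 75.12, 71.19 and 72.17 FPKM (0.65, adjusted p = 0.0309, and 0.179).

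Fcor, a cofactor that represses the transcription factor Foxo1, was at 3.61, 3.01 and 3.01 FPKM in DMSO and at 9.02, 17.01 and 11.9 FPKM in compound PD (1.72, adjusted p = 0.0332 without PD DMSO 1, and 0.0851 with all 6). Id2, an inhibitor of basic helix-loop-helix factors, was at 41.45, 32.26 and 33.77 against 69.41, 56.99 and 63.05 FPKM (0.91, adjusted p = 0.0252, and 0.143). The groups of both genes did not overlap. Nmb, the neuropeptide neuromedin B, was at 5.05, 1.48 and 2.42 against 14.07, 9.66 and 7.79 FPKM (1.95, adjusted p = 0.0308, and 0.158).

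In Timp3, Cd59a and Ddx3y the call rested on PD DMSO 2 and 3, because PD DMSO 1 was inside or above the treated range. Timp3, an inhibitor of matrix metalloproteinases, was at 39.79, 10.78 and 13.45 FPKM in DMSO and at 69.49, 36.14 and 35.5 FPKM in compound PD (1.81, adjusted p = 0.0395 without PD DMSO 1, and 0.349 with all 6). Cd59a, which protects cells from complement, was at 41.74, 11.47 and 9.32 against 43.23, 25.62 and 27.36 FPKM (1.51, adjusted p = 0.0374, and 0.616). The Y-linked Ddx3y was at 20.78, 2.5 and 1.88 against 11.44, 9.24 and 10.08 FPKM (1.82, adjusted p = 0.0213, and 0.769). Capn3 (1.92), Hpgd, which inactivates prostaglandins (1.89), Myct1 (1.57) and Gbx2 (1.79) also rose in that fit, with adjusted p with all 6 libraries from 0.190 to 0.365. PD DMSO 1 was inside the treated range in Myct1 and below it in Capn3, Hpgd and Gbx2.

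Among noncoding and unnamed genes, Rmrp, the RNA of an enzyme that processes mitochondrial and ribosomal RNA, was at 6.85, 0 and 0 FPKM in DMSO and at 7.76, 4.18 and 19.71 FPKM in compound PD (adjusted p = 0.0395 without PD DMSO 1, and 0.388 with all 6). Gm13431 was at 14.29, 14.74 and 7.16 against 41.85, 34.86 and 29.96 FPKM (1.68, adjusted p = 0.0435, and 0.0989). Gm13431 kept its groups apart with PD DMSO 1, and Rmrp did not. Gm6093, AC133488.1 and Scarna10 also passed on the higher side without PD DMSO 1, with adjusted p of 0.0292, 0.0447 and 0.0451, and of 0.799, 0.0973 and 0.278 with all 6. On the lower side, 2410003L11Rik was at 0.16, 13.67 and 17.57 against 0.35, 0 and 0 FPKM (-3.90, adjusted p = 0.0055, and 0.366), so PD DMSO 1 was as low as the treated libraries. 2810030D12Rik was at 6.07, 20.2 and 19.66 against 8.61, 5.06 and 4.11 FPKM (-1.65, adjusted p = 0.0417, and 0.383), with PD DMSO 1 inside the treated range. The low genes Mt3 (-2.65), Pet117 (-2.57) and Gm12978 (-2.53) fell in the same fit. Their adjusted p with all 6 libraries were 0.158, 0.121 and 0.0973, and PD DMSO 1 lay above all treated libraries in each.

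Prss34 and the eosinophil genes Prg2, Prg3, Ear1, Ear2 and Ear6 were higher in PD DMSO 2 and 3 than in the other 4 libraries, while Epx, Siglecf and Il5ra were not. Prg2, the major basic protein of eosinophil granules, was at 29, 197.25 and 199.92 FPKM in DMSO and at 63.8, 74.7 and 72.65 FPKM in compound PD. PD DMSO 1 was below every treated library. Without PD DMSO 1 the log2 difference was -1.49 (SE 0.10, adjusted p = 0.0055), and with it -0.58 (adjusted p = 0.893). Prss34, a basophil protease, was at 1.3, 31.79 and 31.45 against 2.6, 2.96 and 2.37 FPKM (-3.17, SE 0.17, adjusted p = 0.0031, and 0.562 with all 6).

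The eosinophil list had 8 tested members, of which 4 fell without PD DMSO 1 (Prg2, Prg3, Ear1 and Ear6, against 0.301% of all genes), and none passed with all 6 libraries. Ear2 did not pass in either fit (adjusted p = 0.0765 without PD DMSO 1). Its median was -1.27 without PD DMSO 1 and -0.50 with it. Ear1, Ear2 and Ear6 are ribonuclease genes with near-identical copies, so their values are uncertain. Summed over the list, FPKM were 41.61 in PD DMSO 1, 295.4 and 296.21 in PD DMSO 2 and 3 and 94.92 to 101.08 in compound PD. Epx, the eosinophil peroxidase, was at 0.73, 3.05 and 1.92 against 3.77, 1.37 and 1.17 FPKM. Mast cell and basophil markers as a whole had 9 of 11 members on the higher side, against 59.1% of all genes. Their median was 0.70, and 0.86 without PD DMSO 1, so Prss34 went against its own list. Their summed FPKM were lowest in PD DMSO 2 and 3, at 999 and 1048, against 2040 in PD DMSO 1 and 1655 to 3522 in compound PD.

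Npm1 and Gnl3 fell in the fit without PD DMSO 1 and did not pass in that with it. Npm1, a nucleolar chaperone of ribosome assembly, was at 603.44, 1427.43 and 1337.97 FPKM in DMSO and at 885.01, 952.77 and 1025.85 FPKM in compound PD (log2 difference -0.54, SE 0.09, adjusted p = 0.0416 without PD DMSO 1, and 0.956 with all 6). Gnl3, nucleostemin, was at 63.48, 160.57 and 169.34 against 87.46, 107.75 and 105.05 FPKM (-0.72, adjusted p = 0.0391, and 0.904). In both genes the controls enclosed the treated libraries, with PD DMSO 1 below and PD DMSO 2 and 3 above. Of the 40 tested genes of ribosome biogenesis these were the 2 that passed, against 0.301% of all genes on the lower side, and the median of the list was -0.41 without PD DMSO 1 and -0.08 with it. The cytosolic ribosomal proteins had 1 of 84 members on the higher side, against 59.1% of all genes. Their median was -0.15, and none passed in either fit.

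The controls enclosed the treated libraries in Hsp90ab1 and Cct3 as well, and Ung and Gins2 also fell in the fit without PD DMSO 1. Of the heat shock list 1 of 20 tested members passed on the lower side in that fit, and of the S phase and replication list 1 of 45, against 0.301% of all genes. Hsp90ab1, a cytosolic chaperone, was at 821.84, 1487.02 and 1432.47 against 1098.57, 1099.23 and 1083.52 FPKM (-0.42, adjusted p = 0.0434 without PD DMSO 1, and 0.922 with all 6). Cct3, a subunit of the chaperonin that folds actin and tubulin, was at 160.13, 305.63 and 303.06 against 223.78, 204.96 and 212.64 FPKM (-0.51, adjusted p = 0.0403, and 0.894). Ung, which removes uracil from DNA, was at 11.72, 29.69 and 24.62 against 12.98, 13.19 and 12.07 FPKM (-1.03, adjusted p = 0.0289, and 0.496), with PD DMSO 1 just under the treated libraries. Gins2, a subunit of the replication helicase, was at 37.55, 57.53 and 75.45 against 37.8, 35.46 and 36.41 FPKM (-0.83, adjusted p = 0.0404, and 0.439), with PD DMSO 1 inside the treated range.

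Further genes that fell without PD DMSO 1 were of varied function. Tfpi, an inhibitor of blood clotting, was at 4.84, 13.07 and 13.91 FPKM in DMSO and at 5.42, 3.9 and 3.59 FPKM in compound PD (-1.47, adjusted p = 0.0300, and 0.330 with all 6). Eri3, an exonuclease family member, was at 15.95, 39.15 and 41.89 against 16.34, 15.41 and 15.46 FPKM (-1.31, SE 0.12, adjusted p = 0.0131, and 0.369). Dvl2, a mediator of Wnt signals, was at 10.55, 41.48 and 40.86 against 17.86, 23.63 and 18.38 FPKM (-1.02, adjusted p = 0.0308, and 0.884). PD DMSO 1 was inside or below the treated range in all 3. Pex13 (-0.99) and Mecr (-0.73), which serve peroxisomes and mitochondrial fatty acid synthesis, fell in the same fit with PD DMSO 1 again low (adjusted p with all 6 libraries 0.665 and 0.812). Ass1, Scin and Ifitm1 fell too (-0.84, -0.85 and -0.78), and in Scin and Ifitm1 the log2 difference with all 6 libraries was on the other side, at 0.07 and 0.28. With all 6 libraries the adjusted p of the 3 were 0.974, 0.992 and 0.970.

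Csf2rb2 and Aqp9 were among the 9 lower genes in which PD DMSO 1 also lay above all treated libraries. Csf2rb2, a beta chain of the interleukin 3 receptor, was at 83.37, 69.16 and 85.85 FPKM in DMSO and at 47.52, 47.06 and 43.92 FPKM in compound PD (-0.73, SE 0.12, adjusted p = 0.0443 without PD DMSO 1, and 0.137 with all 6). Its near copy Csf2rb, the shared beta chain of 3 cytokine receptors, was at 236.4, 169.59 and 196.12 against 122.3, 135.67 and 144.52 FPKM and did not pass in either fit (-0.57 with all 6 libraries, adjusted p = 0.249, and 0.106 without PD DMSO 1).

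The erythroid list lay to the lower side. With all 6 libraries 3 of 48 tested members had a positive log2 difference, against 59.1% of all genes, with a median of -0.40. On the lower side 6 members had an unadjusted p under 0.05, against 1.61% of all genes. The groups did not overlap on that side for 14 members, against 3.71% of all genes. Without PD DMSO 1 the median was -0.13 and 15 of 48 were positive, against 47.0% of all genes. None passed in either fit. The beta globin Hbb-bs was at 121376, 58074 and 60397 FPKM in DMSO and at 40841, 62230 and 70026 FPKM in compound PD. The band 3 anion exchanger Slc4a1 was at 1441.42, 411.6 and 419.01 against 316.79, 580.06 and 527.32 FPKM. In both, PD DMSO 1 was far above the other libraries and compound PD 1 was the lowest, and PD DMSO 2 and 3 were inside the treated range.

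Regulators of the progenitor state did not pass in either fit. Kit, the receptor of stem cell factor, was at 20.38, 21.82 and 22.66 FPKM in DMSO and at 41.19, 28.83 and 27.06 FPKM in compound PD. All treated libraries were above all controls, led by compound PD 1, and the log2 difference was 0.54 (SE 0.19, adjusted p = 0.351, and 0.208 without PD DMSO 1). Myb, a transcription factor of dividing progenitors, was at 17.65, 47.33 and 44.4 against 44.27, 35.71 and 33.48 FPKM, a log2 difference of 0.16 that turned to -0.28 without PD DMSO 1. Gata2 (0.40, adjusted p = 0.690), Klf1 (-0.29, 0.637), Zfp36l2 (0.24, 0.788), Nr3c1, the glucocorticoid receptor (0.11, 0.934), and Gata1 (-0.03, 0.976) did not pass with all 6 libraries, and without PD DMSO 1 their adjusted p were 0.665, 0.435, 0.862, 0.999 and 0.994. The progenitor list had 20 of 23 tested members on the higher side, with a median of 0.35, and 0.23 without PD DMSO 1, beside 59.1% of all genes on the higher side and a median of 0.06.

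The series also lists a CREB chromatin experiment, which is not analysed here. In RNA, Creb1, the CREB factor that acts on the cAMP response element, was at 20.64, 22.41 and 22.76 FPKM in DMSO and at 20.69, 23.67 and 21.41 FPKM in compound PD (log2 difference -0.0018, SE 0.16, adjusted p = 0.998, and 0.880 without PD DMSO 1). The list of CREB and immediate early genes had 15 of 28 tested members on the higher side, against 59.1% of all genes, with a median of 0.11 (0.15 without PD DMSO 1) and none that passed in either fit. The list of muscarinic receptors, G proteins and cAMP enzymes had 38 of 42 on the higher side, against 59.1% of all genes. Its median was 0.26 (0.19 without PD DMSO 1). An unadjusted p under 0.05 on the higher side was reached by 8, against 9.05% of all genes. Without PD DMSO 1, 1 member passed, namely Gnaz, against 1.10% of all genes on the higher side. Chrm4, a muscarinic acetylcholine receptor, was near 0 at 0.16, 1.55 and 0 against 0.23, 0.19 and 0.32 FPKM and was too low to test. Of the 132 genes called higher without PD DMSO 1, 109 had a RefSeq start region. The CRE letters are held by 1 of these (0.917%), against 2.76% of all genes, a count too small to read as a difference. Shares of the other motifs were 13.8% for TATA, 14.7% for ETS, 12.8% for RUNX, 9.17% for GATA and 8.26% for C/EBP. Each of these lay above the share of all genes given earlier, and no difference in motifs was tested.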

How the data were processed

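The authors deposited FPKM values of 54752 entries per library, given with 2 decimals. Extraction used a column kit and library preparation followed Illumina protocols, per the labels' protocols. STAR and mm10 are named, per the submitters' processing notes. The program that made the FPKM, the annotation, strand use and selection of RNA have no statement in the labels or headers, so overlapping genes, antisense pairs and near-identical copies have uncertain values. Left out were 27 symbols turned into dates and 93 repeated entries (the entry with the highest mean was kept), which left 54632 symbols.

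Genes that averaged 1 FPKM or more were tested on log2(FPKM + 1) with limma 3.58.1 in R 4.3.3 (trend and robust moderation, statmod 1.5.0), unpaired, two-sided, with Benjamini-Hochberg adjustment over all genes tested and a threshold of 0.05. The procedure was tested on simulated data with independent noise for each gene and library. No simulated library was shifted as a whole, so that test does not cover a library like PD DMSO 1. Depth is unknown because FPKM carry no counts, so the number of libraries limits the precision.

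The 69 lists and their members were chosen with earlier results of these data known. Named were up to 12 genes outside and 6 on the lineage lists per direction with the largest change, a mean of at least 5 FPKM and groups that do not overlap, up to 4 members of each list with 3 or more calls, the largest changes among noncoding, low and once-called genes, the highest genes, and 9 fixed regulators. Applying this rule to the fit without PD DMSO 1, and some further genes, were chosen after the values were seen. Alternatives were the pseudocount, the filter, median-ratio and quantile scaling, the moderation, the replicate block and each library left out. Scaling to the total without the adult globin genes was added after seeing the data.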

Additional observations from a re-analysis of the deposited data

How the results depend on the processing

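With all 6 libraries 2 genes were higher and 2 lower, and 1 gene on a list was called. Leaving out PD DMSO 1 gave 132 higher, 36 lower and 56 on lists, while over the libraries left out in turn the counts ranged from 1 to 132 higher, 0 to 36 lower and 0 to 56 on lists. Leaving out any compound PD library left 1 higher and 0 lower (751 to 998 genes at an unadjusted p under 0.05, limma). Without PD DMSO 1, median-ratio scaling gave 161, 34 and 63, and scaling without globin genes gave 127, 37 and 58. With all 6 libraries, scaling without globin genes gave 4, 2 and 3, no filter gave 1, 0 and 0, a mean of at least 5 FPKM gave 3, 2 and 2, and limma without trend and robust moderation gave 1, 1 and 0. Median-ratio and quantile scaling each gave 2 higher and 1 lower. The cause of these changes was not tested. Over all genes tested, libraries with the same replicate number were hardly correlated (correlations of deviations -0.006, -0.0285 and -0.0225). Pairing within smaller sets of genes was not tested. The replicate block gave 37 higher, 5 lower and 13 on lists.

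The log2 differences that turned their sign had not been called with all 6 libraries. With all 6, Scin went to -0.0087 (median-ratio) and -0.018 (quantile), and Xist to -0.072, -0.076 and -0.036 (median-ratio, quantile, globin-free). In the median-ratio and globin-free fits without PD DMSO 1, Scin gave -0.84 and -0.86, Xist -1.26 and -1.28, Myb -0.26 and -0.29 and Ifitm1 -0.76 and -0.78. Gata1 gave 0.016 in the median-ratio and Nr3c1 -0.0035 in the globin-free fit. With each library left out in turn, the ranges were -0.85 to 0.55 for Scin, -1.28 to 0.67 for Xist, -0.28 to 0.41 for Myb, -0.78 to 0.84 for Ifitm1, -0.21 to 0.36 for Mpo, -0.42 to 0.012 for Hsp90ab1, -0.056 to 0.037 for Creb1, -0.59 to 0.019 for Eif2s3x, -0.54 to 0.084 for Npm1 and -0.84 to 0.20 for Ass1.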
